A study of Homo sapiens with 15 samples.

Results

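The cells treated with Dcp2 siRNA were set directly against those treated with DcpS siRNA, 3 arrays against 3, which makes 6 of the 15 arrays of the series. They were chosen by the siRNA named in the sample titles, and every gene with a named probe set was compared, 14884 in all. All samples were HEK293T, a human embryonic kidney line that carries the SV40 large T antigen. In every group the cells received actinomycin D, an inhibitor of transcription, at 1 ug per mL for 4 hours, starting 48 hours after transfection, and total RNA was then hybridised to Affymetrix arrays. The remaining groups, also of 3 arrays each, received siRNA against LOC550643, siRNA against GAPDH, or a non-silencing siRNA that matches no human gene and serves here as the reference level. The depositors named Dcp2 as the comparison related to decapping and DcpS as a decay enzyme of another pathway, so this contrast asks how the 2 depletions differ. No untreated cells were compared, so a level here holds both the amount of a transcript before the drug and its loss during it. The number and the sequences of the Dcp2 and DcpS siRNAs are not given in the sources used here. Whether the 3 samples of a group were grown apart is not stated, so p-values describe the scatter of these samples, and it may be technical.

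Both enzymes act on the mRNA cap, at different steps. Dcp2 is a Nudix hydrolase that removes the cap from mRNA whose poly(A) tail has been shortened, together with its activator DCP1 and P-body proteins such as EDC3, EDC4 and DDX6, after which the exonuclease XRN1 degrades the body from its 5′ end. When the exosome instead degrades an mRNA from the 3′ end, a short capped remnant is left, and DcpS, a scavenger enzyme of the histidine triad family, hydrolyses that cap. Short-lived mRNAs such as those of immediate early genes, and many mRNAs whose levels follow the cell cycle, are classic substrates of such decay.

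Over all probe sets, arrays correlated at 0.9897 to 0.9906 within Dcp2 siRNA and 0.9834 to 0.9871 within DcpS siRNA. Dcp2 with DcpS arrays correlated at 0.9818 to 0.9879. The DcpS arrays were thus not more alike than arrays of the 2 siRNAs could be. A score along the main direction in which arrays of 1 group differed, which held 24.7% of the variance within groups, set 2 arrays apart. DcpS replicate 1 scored -16.7, against 3.86 and 4.58 for the other DcpS arrays. Non-silencing replicate 1 scored -20.2, against -0.81 and 4.09. The Dcp2 arrays scored 3.997 to 10.7. The part of this score in the results was not tested except by the values given without single arrays or with the score as a covariate. Markers of HEK293T and neural lineages over 10 measured genes averaged 6.91 to 6.94 log2 units with Dcp2 and 6.88 to 6.97 with DcpS siRNA. 2 of these 10 were called, which means a limma adjusted p under 0.05 (20%, beside 5.64% over all genes). They went in opposite directions, LIN28B (0.52, Dcp2 minus DcpS) and DACH1, a developmental transcription factor (-0.43, limma adjusted p = 0.0496). DACH1 lost its call without each of the 6 compared arrays in turn. The 3 measured blood, 3 stromal and 4 endothelial markers averaged 3.47 to 4.55 log2 units with Dcp2 and 3.70 to 4.31 with DcpS siRNA. CD68, a lysosomal protein and blood marker also made by other cells, was the only 1 of the blood, stromal and endothelial markers called different, at 0.67 log2 units higher with Dcp2 siRNA. That was 33.3% of the blood markers and 0% of the stromal and endothelial ones, beside 5.64% over all genes.

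DCP2 itself was measured by 1 probe set, on chromosome 5. It read 6.23, 6.42 and 6.36 log2 units with Dcp2 siRNA, 7.34, 7.60 and 7.87 with DcpS siRNA and 7.98, 8.22 and 8.21 with the non-silencing siRNA. The 3 groups did not overlap, and DcpS siRNA lay between the others. DCP2 was 2.40-fold lower with Dcp2 than with DcpS siRNA, a difference of -1.26 log2 units (SE 0.13, limma adjusted p = 8.7e-05). The Dcp2 siRNA left 28.7% of the non-silencing level. DCPS had no named probe set, so its depletion is not analysed here. GAPDH read 7.23 ± 0.04 with Dcp2 siRNA, 7.13 ± 0.11 with DcpS siRNA and 7.20 ± 0.10 with the non-silencing siRNA (log2 units, mean ± SD, n = 3 each), a difference of 0.10 that was not called (limma adjusted p = 0.721).

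Of the 14884 genes, 839 differed between the siRNAs at a limma adjusted p under 0.05, which is 5.64% of those tested. A gene that passes is called here, and "rose", "fell", "higher" or "lower" of a called gene refers to Dcp2 siRNA relative to DcpS siRNA. 363 genes were higher with Dcp2 siRNA (2.44%) and 476 lower (3.2%). The called differences ran from 0.27 to 1.51 log2 units in size. Only 10 higher and 19 lower genes reached 1 log2 unit, which is 2-fold. The 3 arrays of one siRNA lay entirely above the 3 of the other for 3573 genes (24% of those tested), and 836 of the called genes were among them. Against the non-silencing siRNA, 294 genes (1.98%) were called with Dcp2 siRNA, 156 higher (1.05%) and 138 lower (0.927%). With DcpS siRNA 538 (3.61%) were called, 262 higher (1.76%) and 276 lower (1.85%). Those 2 comparisons share the non-silencing arrays with each other, and each shares its siRNA arrays with the direct one. The non-silencing mean lay between the 2 siRNA means for 272 of the 363 higher genes and 397 of the 476 lower ones. The count of 839 was 445, 495 or 547 without Dcp2 replicate 1, 2 or 3, and 451 without DcpS replicate 1, of which 424 were among the 839. 334 of the 839 stayed called without each of the 6 compared arrays in turn, 144 higher and 190 lower. With a spread estimated from the 6 compared arrays alone, 462 genes were called.

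**Figure D1:**
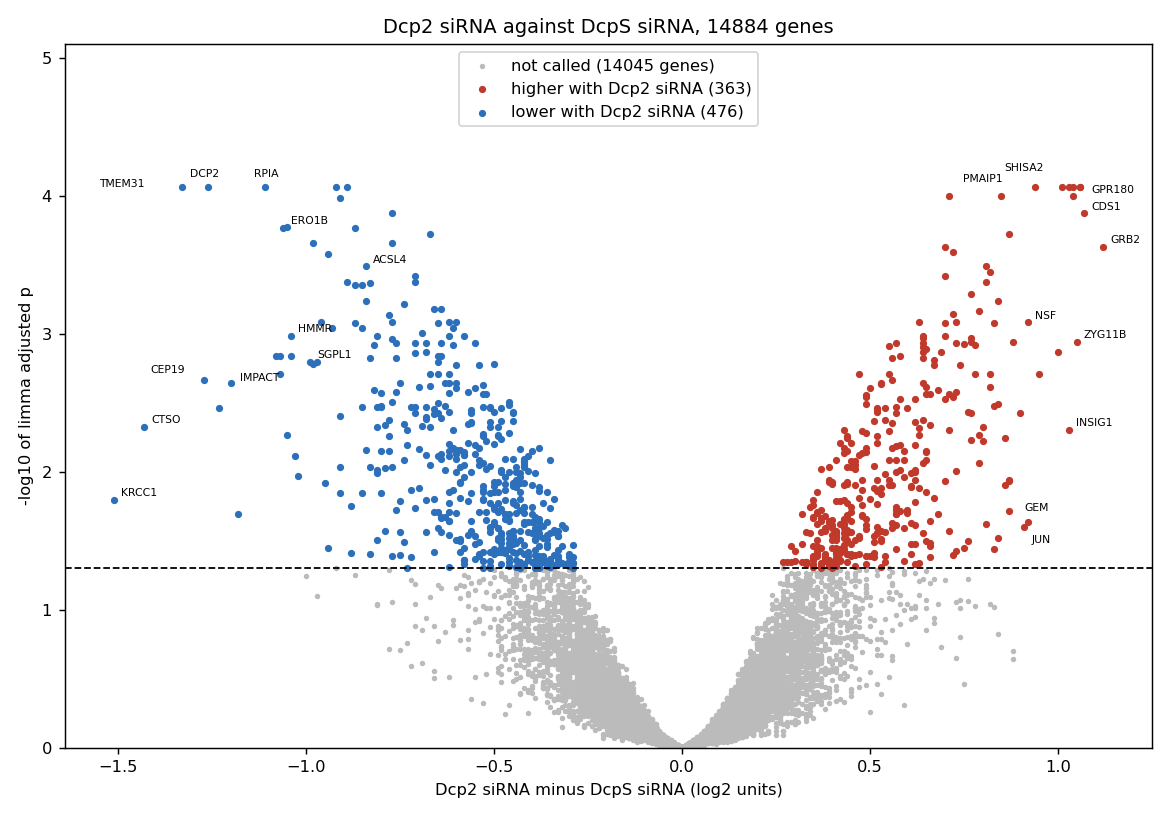
Difference of Dcp2 siRNA minus DcpS siRNA for each of 14884 genes (x axis, log2 units) against -log10 of the limma adjusted p (y axis); red points are the 363 genes called higher with Dcp2 siRNA, blue points the 476 called lower, grey points those not called, and the dashed line is an adjusted p of 0.05. KRCC1 lies farthest to the left, at -1.51, and GRB2 farthest to the right, at 1.12.

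The largest differences towards Dcp2 siRNA were those of GRB2, CDS1 and GPR180. GRB2, the adaptor that links receptor tyrosine kinases to Ras, read 8.84, 8.81 and 8.81 log2 units in the Dcp2 arrays, 7.34, 7.80 and 7.96 in the DcpS arrays and 8.64 ± 0.10 in the reference (SD, n = 3). Its Dcp2 arrays were close together, and each DcpS array lay below them, for a 2.17-fold difference (1.12 log2 units, SE 0.13, limma adjusted p = 0.000235). CDS1, which makes CDP-diacylglycerol, the precursor of phosphatidylinositol, read 7.65, 7.65 and 7.76 against 6.35, 6.66 and 6.84, with the reference at 7.42, a difference of 1.07. GPR180, an orphan membrane protein, read 7.96, 8.03 and 8.06 against 6.67, 7.19 and 7.00, with the reference at 8.14, a difference of 1.06. In all 3 genes the level with DcpS siRNA lay apart from both others. Their differences from the reference were -0.94, -0.80 and -1.19 with DcpS siRNA (limma adjusted p = 0.00133, 0.00178 and 2.63e-05) and 0.18, 0.27 and -0.13 with Dcp2 siRNA (not called).

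The same layout held for most of the other large differences. DEPDC1B, a DEP-domain protein of adhesion and mitotic entry, was higher by 1.06 log2 units, ZYG11B, a substrate receptor of a cullin ubiquitin ligase, by 1.05, and the nucleotide phosphatase ENTPD7 by 1.04. Their reference means were 7.69, 8.74 and 7.94. INSIG1, which holds the SREBP cholesterol sensor in the endoplasmic reticulum, was higher by 1.03 and KITLG, the ligand of the KIT receptor, by 1.00. Their reference means were 9.20 and 5.73. The INSIG1 reference arrays, at 8.62, 9.40 and 9.58, overlapped those of DcpS siRNA (8.09, 8.56 and 8.65). FAM241A was higher by 0.95, with the reference at 6.60. PMAIP1 (NOXA), a pro-apoptotic BH3-only protein of a short-lived mRNA, read 8.39, 8.54 and 8.59 with Dcp2 siRNA and 7.51, 7.62 and 7.57 with DcpS siRNA, below the reference at 8.67. NSF, the ATPase that takes SNARE complexes apart, read 7.39, 7.48 and 7.75 against 6.68, 6.58 and 6.58, below the reference at 7.98. The differences of these 2 genes were 0.94 (SE 0.10, limma adjusted p = 8.7e-05) and 0.92 (SE 0.13, limma adjusted p = 0.000824). Relative to the reference, all 8 were lower with DcpS siRNA, from -1.36 for NSF to -0.75 for KITLG, and none was called with Dcp2 siRNA.

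SHISA2 and RASSF3 differed from the reference with both siRNAs. SHISA2, an endoplasmic reticulum protein that retains Wnt and FGF receptors, was at 7.48 ± 0.09 with Dcp2 siRNA, 6.47 ± 0.17 with DcpS siRNA and 7.94 in the reference (log2 units, SD, n = 3). It was below the reference with both siRNAs, with DcpS siRNA by more (difference 1.01, limma adjusted p = 8.7e-05). The LOC550643 and GAPDH siRNA means of SHISA2, 7.58 and 7.68, were below the reference too. RASSF3, a Ras-association protein, was at 6.81 ± 0.10, 5.79 ± 0.17 and 6.36, so it rose with one and fell with the other (difference 1.03, limma adjusted p = 8.7e-05). GEM and JUN, the other 2 of the 15 largest, belong to the immediate early genes below and were higher than the reference with Dcp2 siRNA.

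**Figure D2:**
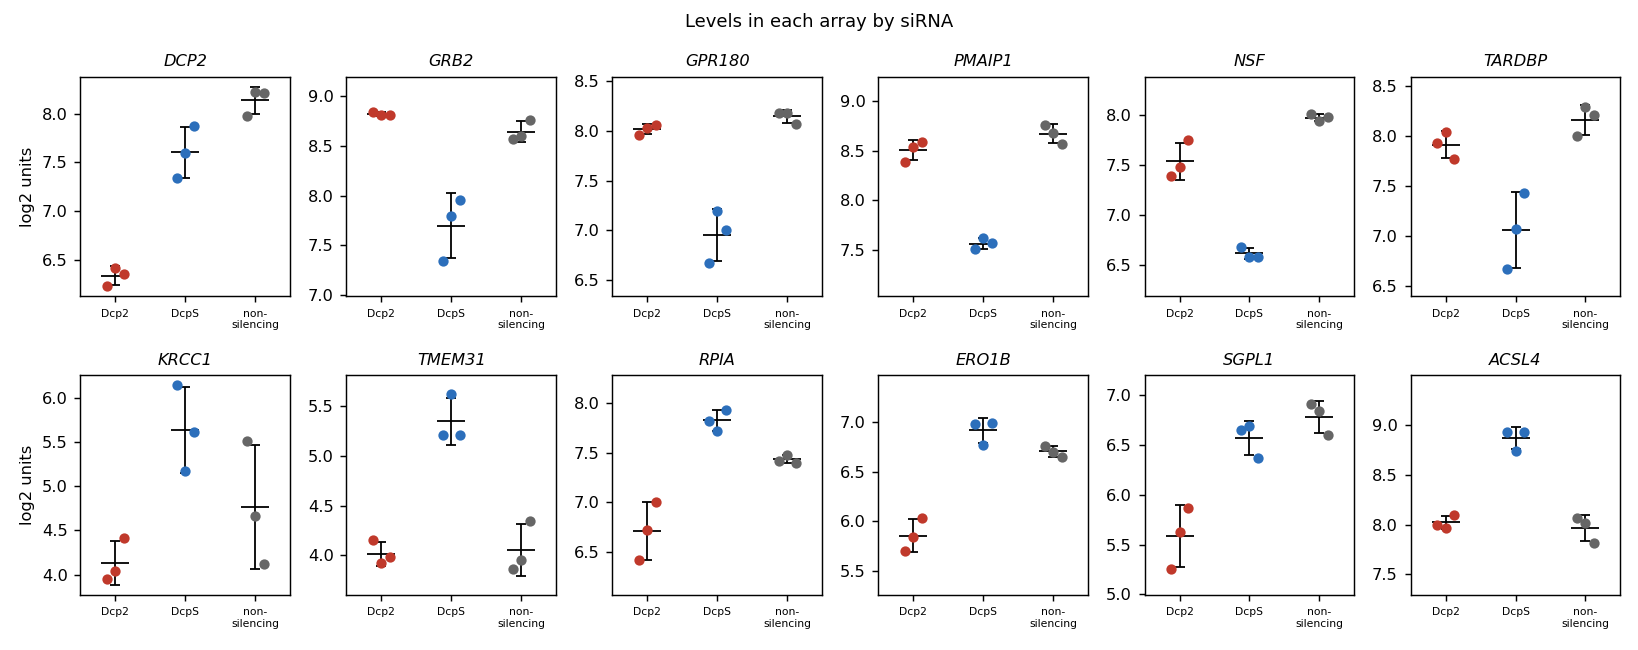
Level of 12 genes (y axis, log2 units) in the Dcp2 siRNA, DcpS siRNA and non-silencing arrays (x axis); each point is 1 array, and bars show the mean ± SD of 3. GRB2, GPR180, PMAIP1 and NSF are lowest with DcpS siRNA, TMEM31 and ACSL4 are highest with it, and RPIA, ERO1B and SGPL1 are lowest with Dcp2 siRNA.

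Among the genes lower with Dcp2 siRNA, the largest differences were of genes with low values. KRCC1, a lysine-rich coiled-coil protein, read 3.95, 4.04 and 4.42 log2 units with Dcp2 siRNA and 6.14, 5.17 and 5.61 with DcpS siRNA, while the reference arrays were spread over 5.51, 4.66 and 4.12. The 2 siRNA groups did not overlap (difference -1.51, SE 0.34, limma adjusted p = 0.0159), and the reference spanned the gap. KRCC1 lost its call without Dcp2 replicate 1 or 2, or without DcpS replicate 1 (limma adjusted p 0.0602 to 0.0847). CTSO, a lysosomal cysteine protease, read 4.25, 3.95 and 4.51 against 5.88, 5.33 and 5.79, with the reference at 4.65. This 2.70-fold difference between the siRNAs held without each compared array. TMEM31, a membrane protein gene on the X chromosome, read 4.15, 3.92 and 3.98 with Dcp2 siRNA, 5.21, 5.62 and 5.21 with DcpS siRNA and 3.86, 3.95 and 4.35 in the reference. Its Dcp2 and reference arrays overlapped, and DcpS siRNA alone was higher (1.30 above the reference, limma adjusted p = 7.54e-05). CABCOCO1, a ciliary and flagellar protein, differed by -1.23 (Dcp2 3.81, DcpS 5.04), with the reference mean between the siRNAs at 4.20. Its reference arrays, at 4.60, 4.04 and 3.97, overlapped those of DcpS siRNA (5.59, 4.55 and 4.97).

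Other genes stood below the reference with Dcp2 siRNA and near or above it with DcpS siRNA. CEP19, a protein of centrioles and cilia, was 1.27 log2 units lower than with DcpS siRNA, at 5.31 ± 0.06 against 6.58 ± 0.31 (SD, n = 3), with the reference at 6.18. RPIA, the ribose-5-phosphate isomerase of the pentose phosphate pathway, read 6.42, 6.72 and 7.00 against 7.82, 7.72 and 7.93, with the reference between them at 7.43 (difference -1.11, SE 0.12, limma adjusted p = 8.7e-05). ERO1B, an oxidase that recharges protein disulfide isomerase in the endoplasmic reticulum, read 5.70, 5.84 and 6.03 against 6.98, 6.77 and 6.99, with the reference at 6.70. LMBRD2, a membrane protein, differed by -1.08, RECK, a membrane-anchored inhibitor of matrix metalloproteases, by -1.07, and ABHD10, a mitochondrial depalmitoylase, by -1.05. The long non-coding RNA LINC00294 differed by -1.04 and equalled the reference with DcpS siRNA (7.82 against 7.76). Against the reference, Dcp2 siRNA lowered CEP19, RPIA, ERO1B, LMBRD2, ABHD10 and LINC00294 by 0.61 to 0.98 log2 units (limma adjusted p 0.00418 to 0.044), and RECK differed by -0.57 (not called). None of these 7 was called with DcpS siRNA, where their differences from the reference were 0.06 to 0.50.

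IMPACT, which restrains the GCN2 kinase of the amino acid response, and CFAP263, a ciliary protein, moved between the 2 siRNAs by -1.20 and -1.07 without a call against the reference. Their reference means were 7.69 and 7.62, between those of the siRNAs. GCSHP3 (-1.18) is a processed pseudogene of the glycine cleavage gene GCSH, so its probes may also read the parent transcript. Its call was lost without Dcp2 replicate 1, DcpS replicate 1 or DcpS replicate 3 (limma adjusted p 0.0602 to 0.107).

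Of 12 measured genes of decapping and P-bodies other than DCP2 and DCPS, 1 was called (8.33%, beside 5.64% over all genes). This was DDX6, the P-body helicase that joins decapping to translational repression. DDX6 read 9.89, 10.05 and 10.07 log2 units with Dcp2 siRNA, 9.36, 9.56 and 9.48 with DcpS siRNA and 10.02 on average in the reference (difference 0.54, SE 0.10, limma adjusted p = 0.0042). The DcpS arrays all lay below the others. The decapping activators gave differences of -0.10 for DCP1A, -0.19 for DCP1B, 0.42 for EDC3, 0.07 for EDC4 and 0.15 for PATL1, none of them called. XRN1, the 5′ exonuclease that acts next, gave -0.26, the eIF4E transporter EIF4ENIF1 0.04, the decapping coactivator PNRC2 0.24, and the silencing scaffolds TNRC6A, TNRC6B and TNRC6C -0.02, -0.06 and 0.35. Against the reference, XRN1 was lower with Dcp2 siRNA (-0.43, limma adjusted p = 0.0372) and DCP1B higher with DcpS siRNA (0.44, limma adjusted p = 0.014), while DDX6 was lower with DcpS siRNA (-0.56, limma adjusted p = 0.00482). The list's median was 0.06 log2 units between the siRNAs, beside 0.0061 over all genes.

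Of the pathways that feed into decapping or run beside it, the exosome and Ski list had 2 calls of 21 (9.52%). The list of other cap-hydrolysing and Nudix genes had 3 of 14 (21.4%) and the cap-binding and cap-synthesis genes 1 of 13 (7.69%). These shares stand beside 5.64% over all genes. EXOSC6, a core subunit of the exosome, was higher with Dcp2 siRNA, at 8.00, 8.32 and 8.20 against 7.50, 7.47 and 7.64 (difference 0.64, limma adjusted p = 0.00103), with the reference at 8.07. SKIC3, the scaffold of the Ski complex that feeds mRNA to the exosome, was lower by 0.46 but not without Dcp2 replicate 1 or 2 or DcpS replicate 1 or 3 (limma adjusted p 0.0505 to 0.106). CYFIP1, which binds eIF4E and belongs to the WAVE actin complex, was the called cap-binding member, at -0.58. The called members of the Nudix list were all lower, NUDT12 by 0.55, NUDT2 by 0.43 and NUDT21, counted by its symbol but a polyadenylation factor, by 0.29. Of the 14, 0 were called without Dcp2 replicate 1 or 2 or DcpS replicate 1 or 3. None of 8 deadenylation genes, 9 nonsense-mediated decay factors, 12 binders of AU-rich and other decay elements, or 18 genes of the SMN complex and snRNP assembly was called by limma. Their differences lay between -0.38 (PAN2, limma adjusted p = 0.107) and 0.53 (SNRPE, limma adjusted p = 0.0843).

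Known substrates of nonsense-mediated decay, the pathway that removes mRNA with early stop codons and relies partly on decapping, showed 1 call among 16 measured (6.25%, beside 5.64% over all genes). ATF4, the transcription factor of the integrated stress response, read 10.30, 10.21 and 10.28 with Dcp2 siRNA and 9.80, 9.90 and 9.93 with DcpS siRNA, with the reference between them at 10.02 (difference 0.39, limma adjusted p = 0.00928). The difference was positive for 13 of the 16 and the median was 0.14, beside 51.5% positive over all genes. DDIT3, an ATF4 target, gave 0.46 (limma adjusted p = 0.0803), GAS5, a snoRNA host transcript, 0.32 (limma adjusted p = 0.205), and ATF3 0.74 (limma adjusted p = 0.157).

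Of 10 measured stress granule genes, 2 rose (20%, beside 5.64% called over all genes) and none fell, with 5 positive and 5 negative differences and a median of 0.00. TARDBP (TDP-43), a nuclear splicing regulator found in stress granules, read 7.93, 8.04 and 7.77 with Dcp2 siRNA and 6.67, 7.07 and 7.43 with DcpS siRNA, with the reference at 8.17. G3BP1, the core protein of stress granules, read 8.44, 8.50 and 8.49 against 7.80, 7.87 and 8.09, with the reference at 8.44. The DcpS arrays lay below the others in both, for differences of 0.86 and 0.56 (limma adjusted p = 0.00568 and 0.0015). LIN28B, which blocks let-7 maturation and is also a marker of this cell line, was the only call among 5 microRNA pathway genes, at 8.62 ± 0.14 against 8.10 ± 0.12 and 8.56 in the reference (SD, n = 3). The translation factors EIF5B and EIF5 were higher by 0.55 and 0.35. With the kinase EIF2AK2, which shares their symbol and was lower, they were the 3 calls of 34 measured (8.82%), with EIF5B called without each compared array, and EIF5 losing its call without each except DcpS replicate 3 (limma adjusted p 0.0932 to 0.144).

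**Figure D3:**
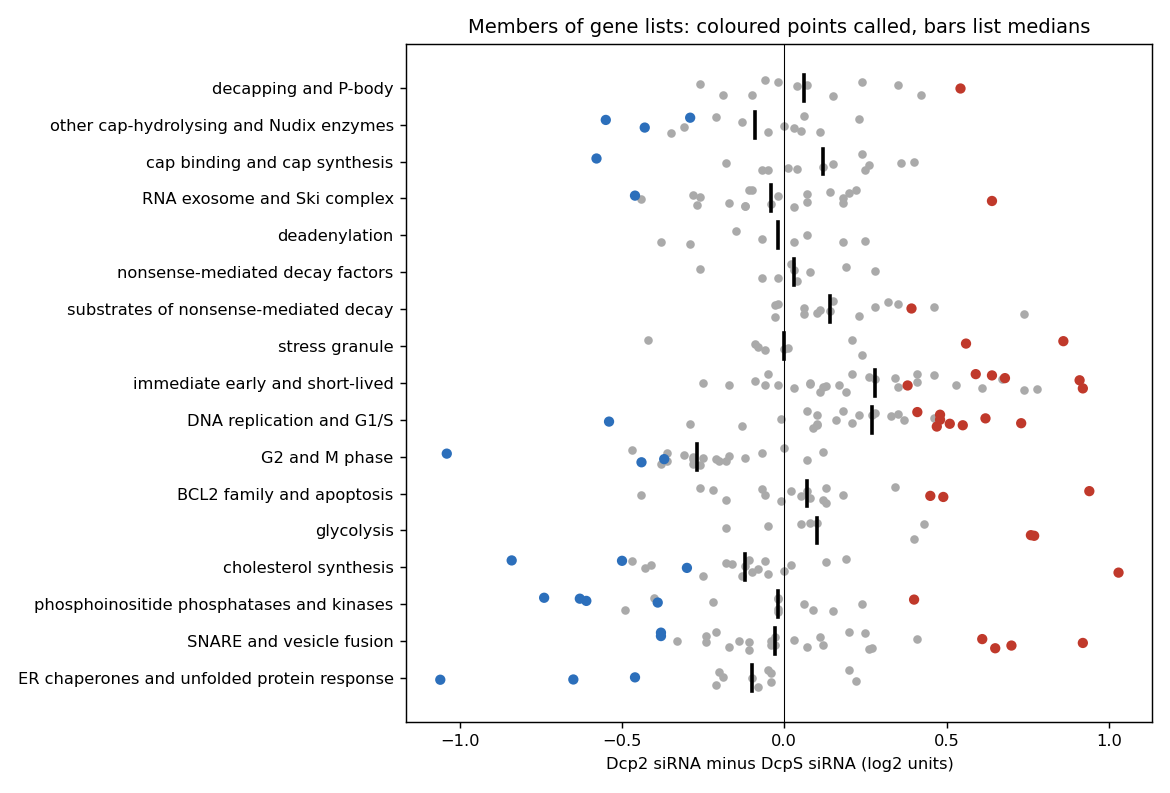
Differences of Dcp2 siRNA minus DcpS siRNA (x axis, log2 units) for the measured members of 17 gene lists (y axis); each point is a gene, coloured points are called by limma, and the short bar is the list's median. The DNA replication and G1/S list has a median of 0.27, the immediate early list one of 0.28 and the G2 and M phase list one of -0.27, beside 0.0061 over all genes.

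Genes of the cell cycle differed in 2 directions. Of 27 measured genes of DNA replication and the G1/S transition, which E2F factors control, 8 rose and 1 fell (33.3% called), and 23 had a positive difference (median 0.27). Of 22 measured G2 and mitosis genes, 3 fell and none rose (13.6% called), and 20 had a negative difference (median -0.27). The arrays of the 2 siRNAs did not overlap for 19 of the 27 and 17 of the 22. These shares stand beside the 5.64% called and 24% not overlapping over all genes, and members of such lists vary together, so their counts are not independent. Against the reference, the G2 and mitosis medians were 0.20 with Dcp2 and 0.49 with DcpS siRNA, and the G1/S medians 0.05 and -0.16. Of the 22 G2 and mitosis genes, 12 were called above the reference with DcpS siRNA (beside 1.76% over all genes). With Dcp2 siRNA 1 was (beside 1.05%), and 0 were called below it with either siRNA.

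The promoters of 4 called genes are shown because the DNA elements known for these 2 phases can be read in them. They run from 250 bases before to 50 bases after the annotated start in RefSeq, build GRCh38.p14, 5′ to 3′ on the gene's strand. Capitals mark the E2F site TTTCGCGC or TTTGGCGC in CDC25A (chr3:48188368-48188667, minus strand) and E2F1 (chr20:33686336-33686635, minus strand). In HMMR (chr5:163460382-163460681, plus strand) and BUB1 (chr2:110678014-110678313, minus strand) they mark the cell cycle homology region, TTTGAA or TTCGAA, which the MuvB complex binds.
CDC25A: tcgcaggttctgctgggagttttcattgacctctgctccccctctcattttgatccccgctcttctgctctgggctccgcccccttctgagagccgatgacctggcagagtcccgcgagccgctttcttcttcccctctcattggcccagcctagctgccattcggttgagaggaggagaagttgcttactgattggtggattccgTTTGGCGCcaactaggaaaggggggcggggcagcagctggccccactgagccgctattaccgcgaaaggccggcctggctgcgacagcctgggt
E2F1: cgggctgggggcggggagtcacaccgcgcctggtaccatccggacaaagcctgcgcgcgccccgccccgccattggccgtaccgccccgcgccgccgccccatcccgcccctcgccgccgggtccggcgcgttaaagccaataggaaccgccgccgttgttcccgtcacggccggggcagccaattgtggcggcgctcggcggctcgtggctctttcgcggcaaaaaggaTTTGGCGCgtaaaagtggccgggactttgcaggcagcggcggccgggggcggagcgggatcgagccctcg
HMMR: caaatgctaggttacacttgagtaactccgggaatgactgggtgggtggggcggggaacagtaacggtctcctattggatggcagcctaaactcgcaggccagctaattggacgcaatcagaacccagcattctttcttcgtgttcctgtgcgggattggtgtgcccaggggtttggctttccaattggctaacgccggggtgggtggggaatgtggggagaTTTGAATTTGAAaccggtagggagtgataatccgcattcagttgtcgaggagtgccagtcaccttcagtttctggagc
BUB1: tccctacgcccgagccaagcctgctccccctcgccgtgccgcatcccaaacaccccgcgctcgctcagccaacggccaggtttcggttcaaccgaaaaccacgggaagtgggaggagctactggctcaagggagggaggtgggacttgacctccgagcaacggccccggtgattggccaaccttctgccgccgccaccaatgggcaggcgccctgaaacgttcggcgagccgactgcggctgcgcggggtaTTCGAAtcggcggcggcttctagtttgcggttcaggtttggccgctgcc

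Counted from the start, the E2F site lies at -44 to -37 in CDC25A and at -20 to -13 in E2F1, and the homology region at -28 to -23 and -22 to -17 in HMMR and at 2 to 7 in BUB1. Of 10749 tested genes with a promoter in the table, 1.6% held this E2F site on either strand. It was in 9 of 23 measured G1/S promoters (39.1%), among them 5 of the 8 called ones (CDC25A, CDC6, E2F1, GINS1 and MCM3), and in 1 of 20 G2 and mitosis promoters (CDK1). The homology region was in 13.2% of all promoters, in 12 of the 20 G2 and mitosis promoters (60%), those of all 3 called genes included, and in 3 of the 23 G1/S promoters. It was also in 5 of 24 promoters of the immediate early and short-lived list (20.8%), among them 3 of its 4 called genes with a promoter (EGR1, IER5 and SGK1). CCAAT, the box bound by NF-Y, was in 36% of all, 16 of the 20 and 15 of the 23. The 3 strings share no bases where they occur in these 4 promoters. A match is a description of the letters and not a measured binding site.

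CDC25A, the phosphatase that activates CDK2 at the G1/S transition and whose promoter stands first above, had the largest difference of the G1/S genes. It read 9.45, 9.39 and 9.55 log2 units with Dcp2 siRNA, 8.49, 8.86 and 8.84 with DcpS siRNA and 8.54, 8.95 and 9.05 in the reference. The Dcp2 arrays stood above both of these groups (difference 0.73, SE 0.13, limma adjusted p = 0.00266, and 0.61 against the reference, limma adjusted p = 0.0241). The LOC550643 and GAPDH siRNA means of CDC25A, 9.38 and 9.27, also lay above the reference mean of 8.85, so that position was not particular to Dcp2 siRNA. CCNE1, cyclin E1, the partner of CDK2, read 7.79, 7.72 and 7.91 against 7.12, 7.09 and 7.54, with the reference at 7.32 (difference 0.55). E2F1, the transcription factor of these genes, read 8.28, 8.39 and 8.52 against 7.82, 8.07 and 7.85, with the reference at 8.07 (difference 0.48, limma adjusted p = 0.00507). E2F1, CCNE2, GINS1, GINS3 and MCM3 are named outside the naming rule, after their values were seen.

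Of the replicative helicase, MCM3 was called, and MCM2, MCM4, MCM5, MCM6 and MCM7 were not (0.10 to 0.27). MCM3 read 10.02, 10.04 and 10.06 with Dcp2 siRNA, 9.55, 9.53 and 9.61 with DcpS siRNA and 10.05 in the reference (difference 0.47, SE 0.08, limma adjusted p = 0.00194), so the DcpS arrays stood below both others. GINS1 and GINS3, of the complex that joins the MCM ring to CDC45, were higher by 0.41 and 0.48, with the reference at 8.29 for GINS1 (Dcp2 8.32, DcpS 7.91) and 8.36 for GINS3 (Dcp2 8.77, DcpS 8.29). The reference was thus near the Dcp2 level for GINS1 and near the DcpS level for GINS3. CDC6, which loads the MCM ring, was higher by 0.62 and cyclin E2, CCNE2, by 0.51. PCNA, the sliding clamp, gave -0.01 without a call. SLBP, which binds the stem-loop of histone mRNA and is kept for S phase, was the 1 gene of the list that fell, at 8.92, 8.89 and 9.04 against 9.47, 9.48 and 9.52 (difference -0.54, limma adjusted p = 0.00168).

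HMMR, a spindle protein and hyaluronan receptor, had the largest difference of the G2 and mitosis genes. It read 7.93, 8.19 and 8.29 with Dcp2 siRNA, 9.48, 8.89 and 9.16 with DcpS siRNA and 8.65, 8.28 and 8.27 in the reference. The DcpS arrays were above both other groups (difference -1.04, SE 0.15, limma adjusted p = 0.00103, and 0.78 above the reference, limma adjusted p = 0.00874). BUB1, a kinase of the spindle checkpoint, read 9.23, 9.35 and 9.36 against 9.65, 9.81 and 9.81, with the reference at 9.22. TOP2A, the topoisomerase that untangles sister chromosomes, read 10.78, 10.88 and 10.81 against 11.09, 11.31 and 11.17, with the reference at 10.73. Both were close to the reference with Dcp2 siRNA (0.09 each) and above it with DcpS siRNA (0.54 and 0.46). The other members ran from -0.47 (KIF23) to 0.12 (CDC20) without a call, and CDK1 gave -0.28, CCNB1, cyclin B1, -0.18 and PLK1 -0.21. KIF20B, a kinesin of cytokinesis kept in another list, was lower by 0.50 (limma adjusted p = 0.00631).

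Without DcpS replicate 1 the G1/S list had 6 higher and 1 lower call, and the G2 and mitosis list 3 lower. The G2 and mitosis list had 1 call without Dcp2 replicate 1 or DcpS replicate 2, and 9 with the array score as a covariate. CDC6 and GINS1 lost their calls without Dcp2 replicate 2 or 3, or without DcpS replicate 1 (limma adjusted p 0.0543 to 0.111). CCNE2 lost its call without each compared array except DcpS replicate 3 (0.0601 to 0.131). BUB1 lost it without Dcp2 replicate 1 or DcpS replicate 2 or 3 (0.0544 to 0.0842), and TOP2A without any 1 Dcp2 array or DcpS replicate 2 (0.0518 to 0.0973).

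**Figure D4:**
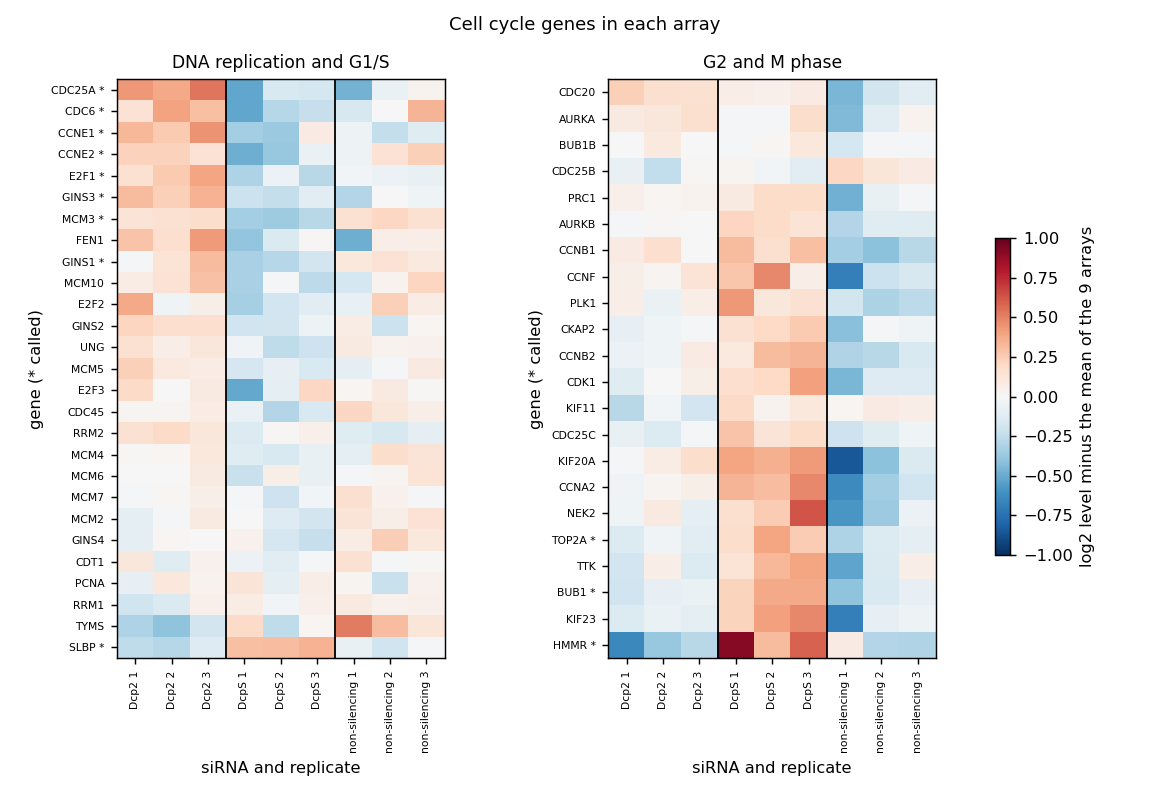
Level of 27 G1/S genes and 22 G2 and mitosis genes (rows) in 9 arrays (columns: Dcp2 siRNA, DcpS siRNA and non-silencing, replicates 1 to 3), as the log2 value minus the gene's mean over the 9 arrays; an asterisk marks genes called between Dcp2 and DcpS siRNA. In the left panel (G1/S) 23 of 27 differences of Dcp2 minus DcpS siRNA are positive and in the right panel 20 of 22 are negative, with HMMR the largest in size at -1.04.

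Of 11 measured genes of the list of CDK inhibitors, D cyclins and their partners, 4 fell and none rose (36.4% called, beside 5.64% over all genes), with 7 negative differences and a median of -0.09. CDK2, the kinase of G1/S, read 9.09, 9.08 and 8.99 with Dcp2 siRNA, 9.43, 9.54 and 9.51 with DcpS siRNA and 9.68 in the reference, which made it lowest with Dcp2 siRNA (difference -0.44, limma adjusted p = 0.0093). The retinoblastoma gene RB1 (-0.54), cyclin D2, CCND2 (-0.42), and the CDK phosphatase CDKN3 (-0.37) were lower too. CCND2 lost its call without Dcp2 replicate 1 (limma adjusted p = 0.0543). RB1 lost it without each compared array except DcpS replicate 2 (0.0821 to 0.156) and CDKN3 without each except Dcp2 replicate 2 (0.0611 to 0.195), and the list had 1 to 3 calls when single arrays were left out, 1 of them without Dcp2 replicate 1 and 2 without Dcp2 replicate 3 or DcpS replicate 1 or 3.

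Of 33 measured immediate early genes and other genes of short-lived mRNA, 6 rose and none fell with Dcp2 siRNA (18.2% called, beside 5.64% over all genes). The other 27 did not pass the test. Over the whole list 27 differences were positive and 6 negative (median 0.28). The arrays did not overlap between the siRNAs for 15, beside 24% of all genes. Against the reference, 10 of the 33 were called higher with Dcp2 siRNA (beside 1.05% over all genes) and 3 with DcpS siRNA (beside 1.76%). With either siRNA 0 were called lower, and the medians against the reference were 0.42 with Dcp2 and 0.08 with DcpS siRNA. Such calls depended on the reference arrays. Without non-silencing replicate 1, the calls over all genes went from 294 to 41 with Dcp2 siRNA and from 538 to 394 with DcpS siRNA. How many of this list stayed called against the reference then is not given here. JUN, a subunit of AP-1, read 11.19, 11.03 and 11.12 log2 units with Dcp2 siRNA, 9.76, 10.38 and 10.46 with DcpS siRNA and 9.25, 9.77 and 10.08 in the reference. GEM, a small GTPase induced by mitogens, read 6.27, 6.18 and 6.48 against 5.15, 5.40 and 5.62, with the reference at 4.31, 4.72 and 5.48. For both, each Dcp2 array was above every other array, and the lowest array of the DcpS and of the reference group was replicate 1. The differences were 0.91 and 0.92 (SE 0.22 each, limma adjusted p = 0.0251 and 0.0231), and 1.42 and 1.47 against the reference (limma adjusted p = 0.00732 and 0.00521).

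SGK1, a serum-induced kinase, was at 5.13, 5.11 and 5.32 with Dcp2 siRNA and 4.38, 4.58 and 4.69 with DcpS siRNA, which overlapped the reference arrays (4.53, 4.73 and 4.69) with DcpS replicate 1 below them. Its difference of 0.64 (SE 0.10, limma adjusted p = 0.00117) held without each compared array. IER3, a stress-induced survival protein, was higher by 0.68, and EGR1, the zinc finger factor of the serum response, by 0.59. IER5, a regulator of heat shock factor, was higher by 0.38. EGR1 and IER5 are named outside the naming rule. Others of the list were not called although their differences were as large, such as DUSP1, the MAP kinase phosphatase (0.78, limma adjusted p = 0.0933), ATF3 (0.74, limma adjusted p = 0.157) and FOSL2 (0.46, limma adjusted p = 0.0537). FOS gave 0.41 and MYC, another short-lived mRNA, 0.08.

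The calls of this list depended on single arrays. 1 gene was called without Dcp2 replicate 1, 3 without Dcp2 replicate 3, 2 without DcpS replicate 1 (SGK1 and EGR1, with the list's median at 0.20) and 3 without DcpS replicate 2. JUN lost its call without any 1 Dcp2 array or DcpS replicate 1 (limma adjusted p 0.0602 to 0.123), and GEM without Dcp2 replicate 1 or 3 or DcpS replicate 1 or 2 (0.057 to 0.105). IER3 lost it without Dcp2 replicate 1 or DcpS replicate 1 (0.102 to 0.105), EGR1 without Dcp2 replicate 1 or DcpS replicate 2 (0.0501 to 0.062), and IER5 without each array except DcpS replicate 3 (0.0725 to 0.167). With the array score as a covariate, 6 were higher, 1 (KLF10) was lower and the median was 0.11.

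**Figure D5:**
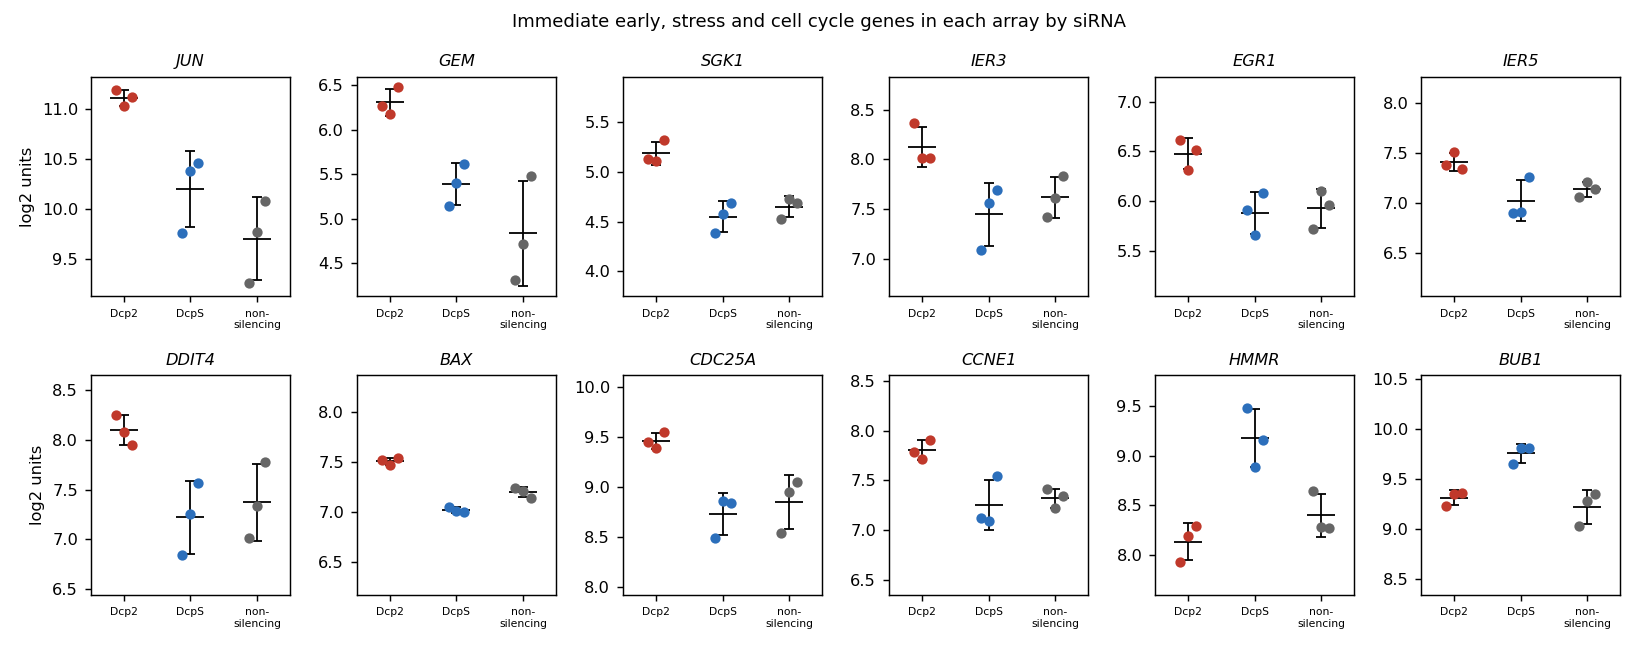
Level of 12 immediate early, stress, apoptosis and cell cycle genes (y axis, log2 units) in the Dcp2 siRNA, DcpS siRNA and non-silencing arrays (x axis); each point is 1 array, and bars show the mean ± SD of 3. JUN and GEM are highest with Dcp2 siRNA and their replicate 1 is the lowest array of the DcpS and non-silencing groups, while HMMR and BUB1 are highest with DcpS siRNA.

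Of 19 measured genes of the BCL2 family and apoptosis, 3 rose with Dcp2 siRNA and none fell (15.8% called, beside 5.64% over all genes). These were PMAIP1 and the pore-forming proteins BAX and BAK1. BAX read 7.52, 7.47 and 7.54 log2 units with Dcp2 siRNA, 7.05, 7.01 and 7.00 with DcpS siRNA and 7.20 in the reference (difference 0.49, SE 0.08, limma adjusted p = 0.00288). BAK1 was at 8.45 ± 0.07 against 8.00 ± 0.07 (SD, n = 3), with the reference at 7.96. BAX lay above the reference with Dcp2 siRNA and below it with DcpS siRNA, neither of them called, and BAK1 was called higher than the reference with Dcp2 siRNA (0.48, limma adjusted p = 0.0328). BAK1 lost its call without Dcp2 replicate 1 or 3 or DcpS replicate 1 (limma adjusted p 0.0786 to 0.0977). The anti-apoptotic genes BCL2, BCL2L1, MCL1 and XIAP gave -0.18, 0.18, 0.34 and 0.13, none of them called. Of the other pro-apoptotic members, BBC3 (PUMA) gave -0.22, BMF -0.06, BID -0.01, BIK 0.02, BAD 0.12 and BCL2L11 (BIM) 0.13, also without a call.

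Glycolytic enzymes showed 2 calls of 9 measured, both higher with Dcp2 siRNA (22.2%, beside 5.64% over all genes). PGAM1, phosphoglycerate mutase, read 8.67, 8.62 and 8.88 against 7.66, 8.15 and 8.05, with the reference at 8.57. LDHA, lactate dehydrogenase, read 6.40, 6.21 and 6.27 against 5.19, 5.68 and 5.73, with the reference at 6.24. In both the DcpS arrays lay below the reference, by 0.61 and 0.70 (limma adjusted p = 0.0203 and 0.0086), and the direct differences were 0.77 and 0.76 (limma adjusted p = 0.00372 and 0.00366). DDIT4 (REDD1), an inhibitor of mTORC1 induced by hypoxia and stress, was the only call of 13 hypoxia genes (7.69%). It read 8.25, 8.08 and 7.95 with Dcp2 siRNA, 6.84, 7.25 and 7.57 with DcpS siRNA and 7.01, 7.33 and 7.78 in the reference. Its difference of 0.87 lost the call without Dcp2 replicate 1 or 2, or without DcpS replicate 1 (limma adjusted p 0.058 to 0.101). MTOR itself was lower by 0.60, with 7.07 ± 0.10 against 7.67 ± 0.12 (SD, n = 3) and the reference at 7.68, but not without Dcp2 replicate 1 or DcpS replicate 1 (limma adjusted p 0.0514 and 0.0533). HTRA1, a protease that cleaves IGF-binding proteins, was the other call of the 20 insulin and IGF genes (10% called), at -0.72, and lost its call without each compared array except DcpS replicates 2 and 3 (limma adjusted p 0.0685 to 0.181). Of these 20 genes 0 were called without Dcp2 replicate 1 or DcpS replicate 1, where 2 had been.

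Of 21 measured genes of lipid and cholesterol synthesis, INSIG1 rose and 3 fell (19% called, beside 5.64% over all genes). The difference was negative for 17 (median -0.12) and positive for INSIG1 and, without a call, MVK (0.19), MVD (0.13) and FDPS (0.02). ACSL4, which activates arachidonic acid for phospholipids, read 8.00, 7.97 and 8.10 log2 units with Dcp2 siRNA, 8.93, 8.74 and 8.93 with DcpS siRNA and 8.07, 8.02 and 7.82 in the reference. The Dcp2 arrays lay among the reference arrays and the DcpS arrays stood above them (difference -0.84, SE 0.11, limma adjusted p = 0.000325). ACACA, acetyl-CoA carboxylase, gave -0.50 and DHCR7, the last enzyme of cholesterol synthesis, -0.30. ACACA lost its call without each compared array except DcpS replicate 3 (limma adjusted p 0.0547 to 0.0985), and DHCR7 without each of the 6 (0.0648 to 0.153). The list had 2 calls without any 1 Dcp2 array or DcpS replicate 1 or 2. SQLE, HMGCS1 and SREBF2, targets or regulators of the same pathway as INSIG1, gave -0.08, -0.18 and -0.13 without a call.

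Of 17 sphingolipid genes 1 was called (5.88%), and of 16 phosphoinositide phosphatases and kinases 5 were (31.2%, 1 higher and 4 lower), beside 5.64% over all genes. SGPL1, the lyase that ends sphingosine-1-phosphate, read 5.25, 5.63 and 5.87 with Dcp2 siRNA, 6.65, 6.69 and 6.37 with DcpS siRNA and 6.91, 6.84 and 6.60 in the reference, so it was lowered by Dcp2 siRNA (difference -0.99, SE 0.16, limma adjusted p = 0.0016). MTM1, the myotubularin that removes the 3-phosphate of endosomal phosphoinositides, read 6.46, 6.38 and 6.46 against 7.25, 7.05 and 7.20, with the reference at 5.99, 6.03 and 6.04. It was above the reference with both siRNAs, with DcpS siRNA by more (difference -0.74, SE 0.10, limma adjusted p = 0.000608). The LOC550643 and GAPDH siRNA means of MTM1, 6.53 and 6.63, were also above the reference, so that position was not particular to these 2 siRNAs. OCRL, the 5-phosphatase of Lowe syndrome, was at 8.95 ± 0.07 against 9.56 ± 0.14 (SD, n = 3), with the reference at 9.03, and SACM1L, the phosphatase of phosphatidylinositol 4-phosphate, at 8.05 ± 0.23 against 8.68 ± 0.09, with the reference at 8.31. MTMR1 was lower by 0.39 and MTMR6 higher by 0.40. These were the 5 phosphoinositide calls, and MTM1, OCRL and SACM1L were the 3 left without Dcp2 replicate 1 or 2 or DcpS replicate 1. MTMR6 lost its call without each compared array except DcpS replicate 2 (limma adjusted p 0.0508 to 0.112) and had an adjusted p of 0.558 with the mean of its 2 probe sets, so these disagreed. MTMR1, VAMP3, STX2, KIF2A, KIF21A and KIF27 are named outside the naming rule, since they complete small counts.

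Membrane fusion genes were called in both directions, 4 higher and 2 lower of 27 (22.2%, beside 5.64% over all genes), with 13 positive and 14 negative differences and a median of -0.03. Besides NSF, SEC22B, a SNARE between endoplasmic reticulum and Golgi, was higher, at 8.84, 8.98 and 8.76 against 7.97, 8.26 and 8.23 (difference 0.70, limma adjusted p = 0.00103), with the reference at 8.65. VAMP1, a synaptic vesicle SNARE, was at 7.06 ± 0.11 against 6.41 ± 0.14 (SD, n = 3), with the reference at 7.18. In both the DcpS arrays were below the other groups. VAMP4 was higher by 0.61 (limma adjusted p = 0.0397), VAMP3 lower by 0.38 (limma adjusted p = 0.0128) and STX2 lower by 0.38 (limma adjusted p = 0.0454). VAMP4 lost its call without replicate 1 or 2 of either siRNA (0.131 to 0.156), VAMP3 without Dcp2 replicate 1 or DcpS replicate 3 (0.0525 to 0.0545), and STX2 without each array except DcpS replicate 2 (0.0978 to 0.142). 3 of the 6 were left without Dcp2 replicate 1.

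Motors of the microtubules, the kinesins, had 7 calls of 39, 2 higher and 5 lower with KIF20B included (17.9%, beside 5.64% over all genes). KIF5A, a heavy chain of conventional kinesin, was higher, at 7.20, 7.24 and 7.41 against 6.55, 6.65 and 6.17 (difference 0.83, limma adjusted p = 0.00335), and its relative KIF5C lower, at 7.22, 7.03 and 7.13 against 7.55, 7.96 and 7.64 (difference -0.59, limma adjusted p = 0.0093). The reference lay between the siRNAs for both, at 7.06 and 7.37. KIF3A, of the ciliary kinesin, was higher by 0.45, and KIF2A, KIF21A and KIF27 were lower by 0.41, 0.41 and 0.39. KIF2A lost its call without Dcp2 replicate 1 (limma adjusted p = 0.0518), KIF21A without Dcp2 replicate 1 or 2 or DcpS replicate 1 or 3 (0.132 to 0.175), and KIF27 without Dcp2 replicate 2 or 3 or DcpS replicate 1 or 3 (0.0752 to 0.211). KIF27 had an adjusted p of 0.712 with the mean of its 3 probe sets.

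Genes of the endoplasmic reticulum stress response gave 3 calls of 13, all lower (23.1%, beside 5.64% over all genes). Besides ERO1B, the sensor kinase ERN1 (IRE1) read 5.94, 6.03 and 6.28 against 6.68, 6.91 and 6.63, with the reference at 6.39 (difference -0.65, limma adjusted p = 0.00376). SEL1L, the adaptor of the HRD1 ubiquitin ligase, was lower by 0.46 but not without Dcp2 replicate 1 or 2 or DcpS replicate 2 or 3 (limma adjusted p 0.065 to 0.134). Of 24 genes of the amino acid response and tRNA charging, ATF4 was higher and the glutamyl-prolyl-tRNA synthetase EPRS1 lower by 0.45 (8.33% called), the latter not without Dcp2 replicate 1 or 2 or DcpS replicate 1 or 3 (limma adjusted p 0.071 to 0.149). Heat shock genes had 0 calls of 12, from -0.10 to 0.36.

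Genes of the interferon and double-stranded RNA response, which siRNA can induce, had 1 call in each direction of 24 measured (8.33%, beside 5.64% over all genes), with a median of -0.01. USP18, which removes ISG15, was higher by 0.54, a call lost without Dcp2 replicate 3 (limma adjusted p = 0.0567). EIF2AK2, the kinase PKR, was lower by 0.43, a call lost without each of the 6 arrays in turn (limma adjusted p 0.0521 to 0.13), so 1 or 0 of the 24 were then called. ISG15 gave 0.09 and IFIT1 -0.26 without a call.

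Signalling lists held 1 or 2 calls each, which was 11.1% of the ephrin, 12.5% of the YAP and TEAD, 9.52% of the Wnt, 5.56% of the actin and 5.26% of the TGF-beta, BMP and Notch genes, beside 5.64% over all genes. In the ephrin family, the receptor EPHA3 read 6.61, 6.72 and 6.68 against 7.55, 7.29 and 7.50, with the reference at 6.75, and the ligand EFNA3 7.74, 7.86 and 7.72 against 8.44, 8.33 and 8.50, with the reference at 7.44. Both were highest with DcpS siRNA (differences -0.78 and -0.65, limma adjusted p = 0.000731 and 0.000836), the 2 calls of 18. Most of the ephrin list went the other way, with 13 positive and 5 negative differences (median 0.08). YAP1, the coactivator of the Hippo pathway, and its target CRIM1 were also highest with DcpS siRNA, at 7.33 and 7.00. They were at 6.81 and 6.45 with Dcp2 siRNA and 6.82 and 6.61 in the reference, the 2 calls of 16. Over these 16 genes, 7 differences were positive and 9 negative (median -0.01), so the list as a whole did not move with them. YAP1 gave a limma adjusted p of 0.0763 with the mean of its 2 probe sets. In the Wnt pathway, 21 measured, the coreceptor LRP5 was lower by 0.73, and RNF43, a ligase that removes Wnt receptors, higher by 0.66, the latter not without Dcp2 replicate 2 or 3 or DcpS replicate 1 (limma adjusted p 0.07 to 0.104). The formin DIAPH1 was the only call of 18 actin genes, higher by 0.44. SMAD3 (0.45) was the only call of 19 genes of TGF-beta, BMP and Notch, and lost its call without each compared array except DcpS replicate 2 (limma adjusted p 0.0781 to 0.171).

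Large gene families served as a comparison. Of 53 measured cytoplasmic ribosomal protein genes, 1 was called (RPL29, 0.41), which is 1.89% beside 5.64% over all genes, with a median of 0.07. RPL29 lost its call without Dcp2 replicate 1 or 3 or DcpS replicate 1 or 2 (limma adjusted p 0.0927 to 0.169). Of 73 mitochondrial ribosomal protein genes, 3 were higher and 1 lower (5.48%), with MRPL17, of the large subunit, at 7.41 ± 0.08 against 6.89 ± 0.03 (SD, n = 3) the largest, and 1 of the 73 was called without Dcp2 replicate 3 and 2 without Dcp2 replicate 2 or DcpS replicate 1. Of 471 genes with the symbol ZNF, 11 were higher and 2 lower (2.76%), led by ZNF503 at 7.66, 7.54 and 7.61 against 6.69, 6.80 and 6.96, with the reference at 7.48. The ZNF count was 3 to 7 without Dcp2 replicate 1, 2 or 3 or DcpS replicate 1 or 2. ZNF703 was higher by 0.64 and ZNF385B lower by 0.68, both also without each compared array.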

How the data were processed

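The deposited values are 1 number per probe set and array on a log2 scale, made by the authors with RMA and the oligo package, per the submitters' processing notes (versions: not given in the sources used here). Their log base was inferred from the range. RMA equalises the arrays, so a shift of all transcripts cannot be seen. Array number limits the precision.

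Of 53617 probe sets, 16098 were paired with a single symbol by the platform annotation and 37519 were unnamed here. For 779 genes with several, the probe set with the highest mean over 15 arrays was used. All 15 arrays entered limma 3.58.1 (R 4.3.3, data.table version 1.17.8) with 1 mean per group, no block and 10 residual degrees of freedom. P-values are two-sided and Benjamini-Hochberg adjusted over 14884 genes. The unnamed probe sets had a fit and an adjustment of their own. No dim genes were left out. The fit was tested on simulated data. Alternatives were other scaling, probe set rules, sets of arrays and covariates.

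Named genes are the 15 largest called, non-overlapping differences each way, without small RNAs and open reading frame or LOC symbols, up to 4 called members of a list, and all decapping genes. The members and lists were chosen with earlier results of these data known. Counts are described beside the share over all genes, without a set test. 3 lists with under 3 measured members were left out. Lists not described above were the solute carriers (3 of 20 called, 15%) and the dual specificity phosphatases (1 of 23, 4.35%). The others were the respiratory chain and ATP synthase genes (0 of 5) and the snoRNA host genes (0 of 10). The share over all genes was 5.64%. Promoter and microRNA sequences are from RefSeq, GRCh38.p14.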

Additional observations from a re-analysis of the deposited data

How the results depend on the processing

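The count of 839 genes became 462 when only the 6 compared arrays were fitted (179 higher, 283 lower) and lay between 445 and 942 when single arrays were left out (higher 194 to 421, lower 224 to 521). It was between 628 and 1109 in the other settings, the last with dim genes left out. Deviations of same-numbered Dcp2 and DcpS arrays correlated at -0.04 to 0.04, and those of other-numbered pairs at -0.08 to 0.06. Of the 3 Dcp2 arrays, 2 correlated best with the DcpS array of their own number. So few arrays cannot show whether replicate numbers pair the samples. A replicate block gave 898 calls, 787 of them shared, and 436 calls for Dcp2 against non-silencing siRNA. With Dcp2 against non-silencing siRNA, the 294 calls became 684 without dim genes, 39 with the 6 arrays, 134 with 9, 487 with array weights, 124 with the array score as a covariate and 41 to 393 without single arrays. With DcpS against non-silencing siRNA, the 538 became 104 with 6 arrays, 1004 with the array score and 276 to 469 without single arrays. The cause was not tested, beyond the smaller number of arrays or genes. Of 131 called genes followed singly, not all of them named here, 68 were called in every setting that tested them. That was 19 settings, or 18 for 5 of the 68 left out as dim, and none of the 131 changed direction. Requantiling and median centring moved the median of all genes by 0.000 and -0.005. Calls between 0.05 and the lost values rest on 3 arrays a group.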

Other observations

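Of 11916 protein-coding genes 6.68% were called. Of 1398 long non-coding RNA genes, 12 were higher and 19 lower with Dcp2 siRNA (2.22%, beside 5.64% over all genes). LINC03027 was at 7.11 ± 0.09 log2 units with Dcp2 siRNA and 6.32 ± 0.25 with DcpS siRNA (SD, n = 3), with the reference at 6.59. LINC00467 was at 6.26 ± 0.04 against 7.00 ± 0.19, with the reference at 6.63. NORAD, an abundant cytoplasmic RNA that binds Pumilio proteins, read 9.65, 9.96 and 9.89 against 8.97, 9.46 and 9.47, below the reference at 10.23 in each of the 6 arrays. NORAD's difference of 0.54 (limma adjusted p = 0.0449) lost its call without any 1 Dcp2 array or DcpS replicate 1 (0.053 to 0.197). These genes, and the microRNA genes below, were chosen after their values were seen.

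Of 1072 microRNA genes, 4 were higher and none lower (0.373% called, below the 5.64% over all genes). The mature sequences of 3 are shown, since 2 of them share a seed (bases 2 to 8, in capitals).
hsa-miR-15b-5p: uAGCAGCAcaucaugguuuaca
hsa-miR-424-5p: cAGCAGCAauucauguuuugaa
hsa-miR-92b-3p: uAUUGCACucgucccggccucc
MIR15B, which lies in an intron of SMC4, read 4.12, 3.74 and 3.48 with Dcp2 siRNA and 3.09, 2.62 and 3.05 with DcpS siRNA (difference 0.86, limma adjusted p = 0.0125). MIR92B read 6.74, 6.90 and 7.07 against 5.98, 6.45 and 6.39 (0.63, limma adjusted p = 0.0131), and MIR424 5.42, 5.59 and 5.42 against 5.02, 5.00 and 5.20 (0.40, limma adjusted p = 0.0494). MIR3143 was higher by 0.87 (limma adjusted p = 0.0117). Each was lost without at least 1 compared array, MIR15B without Dcp2 replicate 1 or DcpS replicate 2 (limma adjusted p 0.0576 and 0.0739). MIR424 was lost without each compared array except DcpS replicate 3 (limma adjusted p 0.0893 to 0.18). MIR15B and MIR424 were among the dim genes, with means under 5.47 log2 units over the arrays, and MIR15B had low values. Such probe sets can read a precursor or host transcript, so the values do not measure the mature microRNA. The 37519 probe sets unnamed here were fitted apart from the genes, with p-values adjusted among themselves. Of them 215 were called (0.573%), 116 higher and 99 lower. This share is therefore not directly comparable with the 5.64% over all genes.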
